A study of Mus musculus with 8 samples.

Results

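The genes described here are 42 cell cycle and mitosis genes. They were chosen by name, not by a measured value, as the rows of the expression table whose symbol is on the list, and all 42 were found among the 55401 genes of the table. They comprise the D and E cyclins, the replication licensing complex and its clamp, the enzymes of nucleotide supply, the cyclins and kinases of S, G2 and M phase, the spindle checkpoint, chromosome and kinetochore proteins, the proteins of the spindle and cytokinesis, and transcription and chromatin factors that act on these genes.

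Tibialis anterior (TA) muscles of 6 mo old male mice were profiled by total RNA-seq after removal of ribosomal RNA. The WT group was C57/Bl6 (n = 4 muscles). The mdx5cv group (n = 4 muscles) carries a mutation of Dmd, the gene of dystrophin, on the C57/Bl6 background and is a mouse model of Duchenne muscular dystrophy. The labels name no treatment, transgene or Cre for either group. The comparison asks which transcripts differ between dystrophic and healthy TA muscle. The labels number the muscles 1 to 4 in each group and do not say whether any of them came from the same animal, so the p-values measure the spread between these muscles.

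A dividing cell passes through G1, copies its DNA in S phase, and separates the copies in mitosis (M), with G2 in between. D and E cyclins drive entry into S phase, the MCM complex is loaded on DNA and unwinds it, and cyclin A, cyclin B and CDK1 bring the cell into mitosis, where kinesins, kinetochore proteins and the Aurora and Polo kinases move and part the chromosomes. Many genes of G2 and mitosis are shut off in resting cells through a short promoter element, the cell cycle genes homology region (CHR), bound by the DREAM complex, and are switched on by B-MYB and FOXM1, often with the factor NF-Y, while genes of G1 and S phase are controlled through E2F sites. Mature muscle fibers have left the cell cycle. In dystrophic muscle, cycles of fiber death and regeneration bring in dividing satellite cells, which are the stem cells of muscle, together with immune and stromal cells.

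Promoters of members are shown to let the elements be seen beside the expression values. RefSeq windows (GRCm38.p6, 250 bases before to 50 after the start) were at hand for 33 of the 42 members, and none for Ccnd1, Ccnd2, Ccne2, Mcm4, Ccna2, Aurkb, Kif20a, Tpx2 and Foxm1. Each is printed 5′ to 3′ on the strand of the gene. Capitals mark the 3 motifs searched on both strands, the CHR (TTTGAA, or TTCAAA on the other strand), the NF-Y box (CCAAT or ATTGG) and 1 form of the E2F site (GCGGGAA or TTCCCGC). Top2a, Cdk1, Ccnb2 and Cenpf were picked as genes of G2 and mitosis that hold CHR and NF-Y letters. Birc5 was picked as a gene of mitosis without the letters of either. Rrm2 and Rrm1 were picked as the subunits of 1 enzyme that differ in expression, and Mcm2 as a gene with both motifs and no call.

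Top2a (chr11:99024140-99024439, minus strand): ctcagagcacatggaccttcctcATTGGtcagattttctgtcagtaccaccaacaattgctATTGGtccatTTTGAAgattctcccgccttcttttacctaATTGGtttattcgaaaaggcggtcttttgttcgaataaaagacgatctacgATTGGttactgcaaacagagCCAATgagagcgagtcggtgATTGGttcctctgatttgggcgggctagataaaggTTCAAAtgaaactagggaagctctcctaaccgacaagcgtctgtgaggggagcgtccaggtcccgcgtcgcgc

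Cdk1 (chr10:69352863-69353162, minus strand): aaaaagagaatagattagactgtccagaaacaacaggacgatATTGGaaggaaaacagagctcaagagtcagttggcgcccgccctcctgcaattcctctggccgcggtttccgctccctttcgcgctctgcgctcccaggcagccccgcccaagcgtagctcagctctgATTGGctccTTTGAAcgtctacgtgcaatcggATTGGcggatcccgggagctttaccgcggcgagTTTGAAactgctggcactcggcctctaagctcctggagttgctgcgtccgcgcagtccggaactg

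Ccnb2 (chr9:70421505-70421804, minus strand): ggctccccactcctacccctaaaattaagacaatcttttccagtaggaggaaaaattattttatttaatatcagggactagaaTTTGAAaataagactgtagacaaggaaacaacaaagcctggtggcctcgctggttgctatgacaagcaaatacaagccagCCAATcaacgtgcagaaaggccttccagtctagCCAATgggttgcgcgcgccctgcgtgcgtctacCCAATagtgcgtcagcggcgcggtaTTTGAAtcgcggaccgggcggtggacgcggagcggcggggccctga

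Cenpf (chr1:189688037-189688336, minus strand): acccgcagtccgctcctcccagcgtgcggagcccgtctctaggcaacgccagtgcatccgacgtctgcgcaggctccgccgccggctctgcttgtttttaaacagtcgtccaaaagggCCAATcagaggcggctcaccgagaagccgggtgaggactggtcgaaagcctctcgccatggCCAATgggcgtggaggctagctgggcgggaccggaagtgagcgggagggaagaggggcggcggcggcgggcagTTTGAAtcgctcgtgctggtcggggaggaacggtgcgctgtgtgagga

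Birc5 (chr11:117848987-117849286, plus strand): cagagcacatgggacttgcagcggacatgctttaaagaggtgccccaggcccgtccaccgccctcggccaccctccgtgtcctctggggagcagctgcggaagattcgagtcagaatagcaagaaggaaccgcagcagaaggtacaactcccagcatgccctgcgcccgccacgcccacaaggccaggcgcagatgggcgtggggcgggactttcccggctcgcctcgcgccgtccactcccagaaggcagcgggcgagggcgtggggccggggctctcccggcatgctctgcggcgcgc

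Rrm2 (chr12:24708004-24708303, plus strand): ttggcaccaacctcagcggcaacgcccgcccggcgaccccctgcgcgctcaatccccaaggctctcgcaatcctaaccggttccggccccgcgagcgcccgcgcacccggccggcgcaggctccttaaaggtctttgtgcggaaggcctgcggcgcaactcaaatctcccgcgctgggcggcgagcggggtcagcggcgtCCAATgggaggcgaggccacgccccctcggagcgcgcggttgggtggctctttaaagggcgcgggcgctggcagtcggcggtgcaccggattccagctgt

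Rrm1 (chr7:102441445-102441744, plus strand): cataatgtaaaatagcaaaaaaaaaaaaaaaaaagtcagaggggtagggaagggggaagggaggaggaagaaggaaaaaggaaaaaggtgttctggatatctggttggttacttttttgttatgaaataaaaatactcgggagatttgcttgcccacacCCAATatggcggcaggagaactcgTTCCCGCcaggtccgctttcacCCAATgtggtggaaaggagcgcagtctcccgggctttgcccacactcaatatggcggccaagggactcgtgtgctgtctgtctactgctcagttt

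Mcm2 (chr6:88898731-88899030, minus strand): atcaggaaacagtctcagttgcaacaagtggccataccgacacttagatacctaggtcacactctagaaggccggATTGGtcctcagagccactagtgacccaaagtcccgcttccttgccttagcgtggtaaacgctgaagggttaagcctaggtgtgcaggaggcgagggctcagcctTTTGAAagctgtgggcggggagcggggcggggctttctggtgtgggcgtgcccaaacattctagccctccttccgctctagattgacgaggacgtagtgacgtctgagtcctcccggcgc

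The CHR letters stood in the windows of 17 of 33 members (51.5%), against 20.2% of all 27025 genes with a window. Within 50 bases of the start, a distance chosen after the positions were seen, they stood in 15 members (45.5%) against 5.94% of all genes. The NF-Y box was found in 27 members (81.8%; 41.1% of all genes), and a window with both elements in 16 (48.5%; 8.97% of all genes). The E2F letters were found in Mcm3, Mcm7 and Rrm1 alone (9.09%; 5.29% of all genes). Different motifs shared bases in the window of 1 member, Cdca8. A match of letters is a description of the window and does not show that a factor binds there.

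The CHR letters stood mostly in genes of mitosis. These were Anln, Aurka, Bub1b, Ccnb2, Cdc20, Cdca8, Cdk1, Cenpf, Ect2, Kif11, Kif23, Mki67, Plk1, Prc1, Racgap1 and Top2a. The licensing gene Mcm2 held the CHR letters as well. Of the 24 members with a window that were called higher in mdx5cv by the criteria given below, 13 held the CHR letters. Of the 6 others that were tested, 2 did, Aurka and Mcm2. For the NF-Y box these counts were 19 of 24 and 6 of 6. Of the 6 others, Ezh2 and Mcm7 rose under the fold limit. The letters stood both in windows of genes that rose past the limit and of genes that did not.

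**Figure D1:**
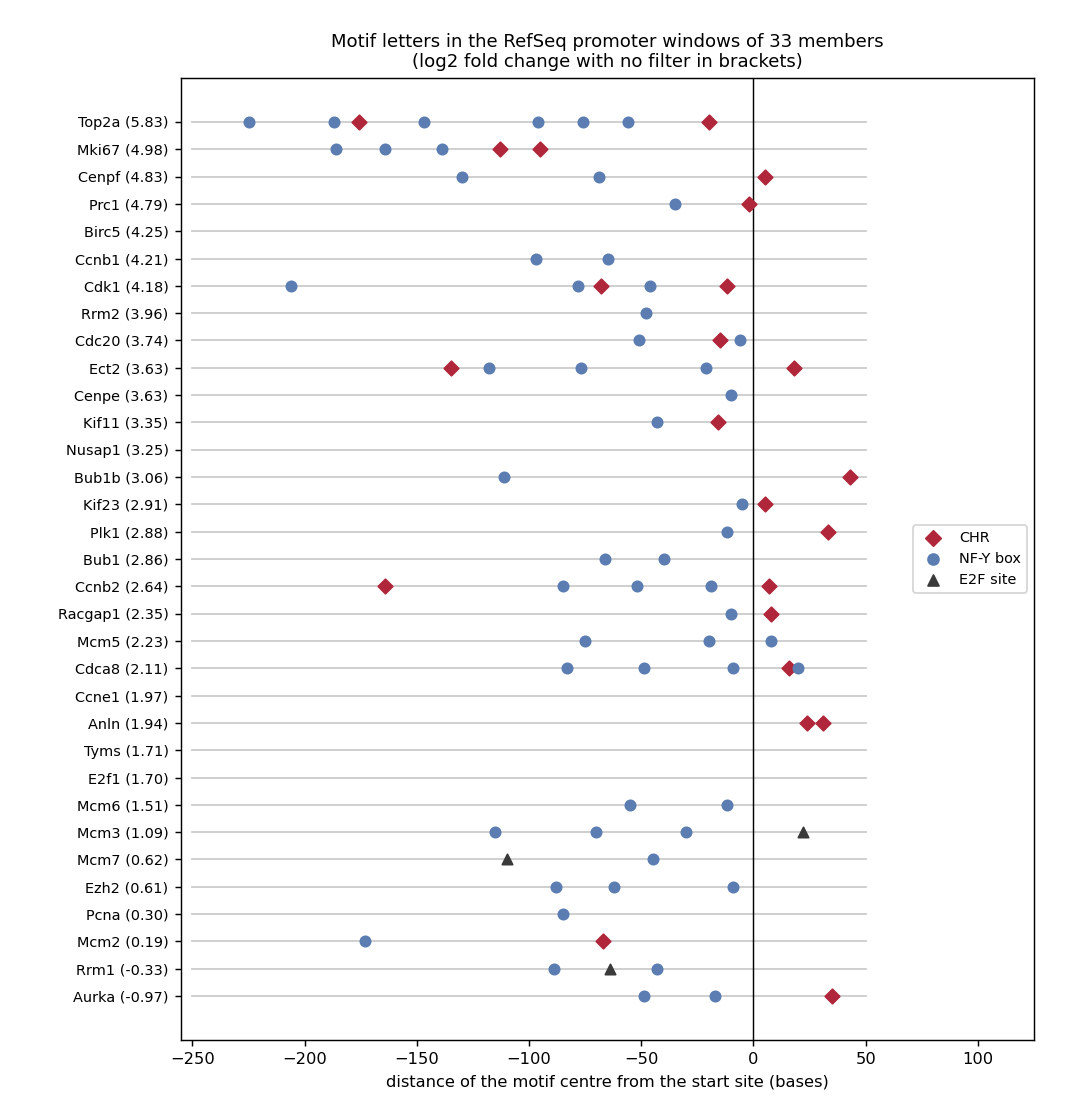
Positions of the motif letters in the RefSeq windows of 33 members, with the distance of the motif centre from the start site in bases on the x axis and genes ordered from the largest log2 fold change (in brackets, fitted with no filter) to the smallest. For Ect2, Mcm7 and Prc1, which have more than 1 window, the first is drawn; diamonds mark the CHR (17 members), circles the NF-Y box (27 members) and triangles the E2F site (3 members).

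Libraries held 13175524 to 14921057 reads recovered from the normalised counts, so that 1 read was worth 0.799 to 1.15 normalised counts. Dmd was lower in all 4 mdx5cv muscles (3461 to 4400 normalised counts) than in all 4 WT muscles (6169 to 8155). Its log2 fold change was -0.81 ± 0.12 (SE; limma with Benjamini-Hochberg adjustment, adjusted p = 0.000177). The labels give the genotype and no level of this transcript. The fiber genes Ckm, Acta1, Actn3 and Myh4 had 34430 or more normalised counts in every muscle, as the tissue label has it. In these genes no library went against its genotype or tissue label.

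The question of the comparison was asked of each member on the scale log2(normalised count + 1). A gene was tested where its mean over the 8 muscles was at least 10 normalised counts, and was called where the limma adjusted p was under 0.05 and the log2 fold change at least 1 in size. Cell cycle genes were higher in mdx5cv across nearly all roles. Of the 42 members, 39 were tested, and 29 rose past the fold limit, against 10.3% of all 13677 genes tested. None fell past it, against 3.27% of all genes; at an unadjusted p under 0.05 the number was also 0 with limma, while edgeR and DESeq2 each called 1, Aurka. With no limit on the fold, 33 members rose (20.9% of all genes) and 2 fell, Rrm1 and Aurka (20.1% of all genes). The 4 members not called were Ccne2, Mcm2, Pcna and Tpx2, and the 3 not tested were Ccne1, Plk1 and Cdca8. The median log2 fold change was 2.64 over the members tested and 0.0035 over all genes tested.

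Part of this count is fixed by the filter. In 22 of the 39 members the WT mean was under 10, so that they were tested only through their level in mdx5cv and had to differ, and all 22 were called, as were 71.4% of all such genes. Among the 17 members with a WT mean of at least 10, 7 rose past the fold limit, against 7.13% of all such genes, 11 rose at any fold, 2 fell and 4 were not called. With no filter all 42 members could be tested, and 32 rose past the limit, against 7.73% of the 28501 genes with a read. In 35 of all 42 members every mdx5cv muscle stood above every WT muscle, in Rrm1 every mdx5cv muscle stood below, and in 6 (Ccne2, Mcm2, Pcna, Aurka, Tpx2 and Ezh2) the groups overlapped. Among genes tested in general, 20.3% stood wholly above and 19.8% wholly below. In bulk RNA, more dividing cells and more of these transcripts per cell cannot be told apart.

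**Figure D2:**
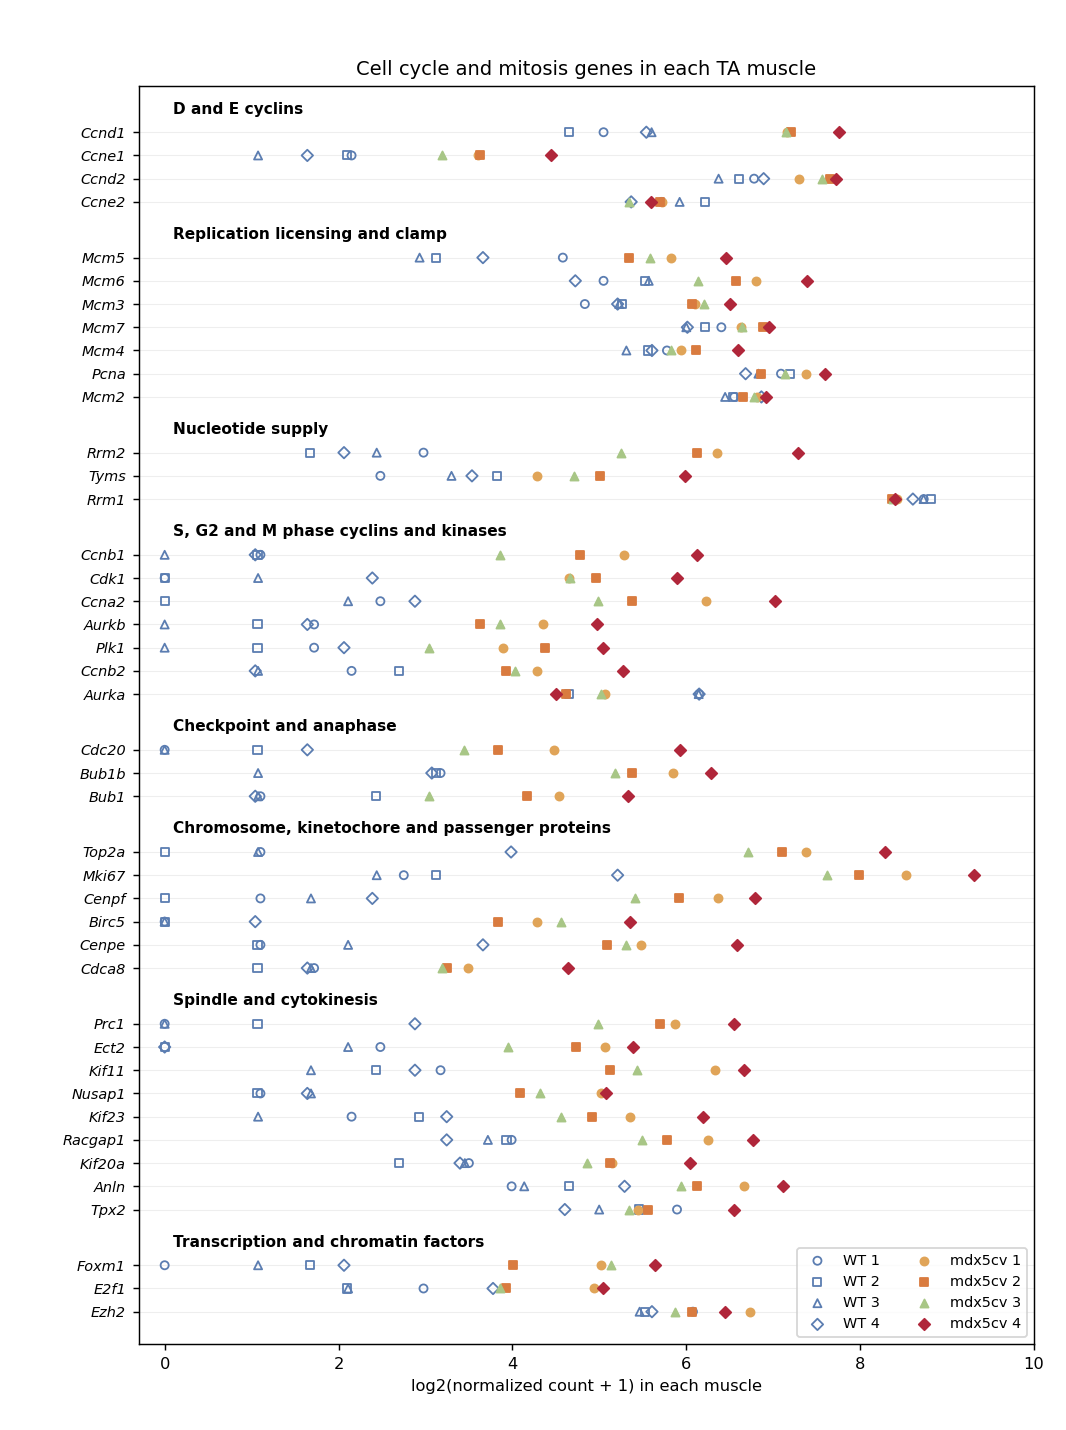
Level of the 42 genes in each TA muscle, as log2(normalised count + 1) on the x axis, with genes grouped by role; open blue symbols are the 4 WT muscles and filled symbols the 4 mdx5cv muscles. In 35 genes all filled symbols lie to the right of all open ones, and red diamonds (mdx5cv 4) lie farthest to the right of the mdx5cv muscles in 38.

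Among the chromosome, kinetochore and passenger proteins, all 5 members tested rose, 4 of which passed the filter through mdx5cv alone. Top2a, topoisomerase II alpha, which untangles the copied DNA, had 1.15, 0.00, 1.11 and 14.8 normalised counts in WT 1 to 4 and 166, 136, 104 and 312 in mdx5cv 1 to 4. WT 4 was the only WT muscle with more than 1 read of Top2a, and it still lay under every mdx5cv muscle. The log2 fold change was 5.83 ± 0.65 (SE; adjusted p = 2.25e-05), and it ran from 3.72 to 7.07 over the alternative settings. Mki67, which codes for the proliferation marker Ki-67, a coat of mitotic chromosomes, averaged 13.5 ± 15.1 in WT against 362 ± 194 in mdx5cv (SD, n = 4) and rose by 4.98 ± 0.51 (adjusted p = 1.13e-05). Its highest WT muscle was again WT 4, at 36.0, and the other WT muscles held 4.42 to 7.68.

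The kinetochore genes Cenpf and Cenpe rose as well. Cenpf went from 1.9 ± 1.8 to 73.0 ± 29.4 and Cenpe, the kinesin that carries chromosomes to the spindle equator, from 4.30 ± 5.01 to 52.6 ± 28.7, with log2 fold changes of 4.83 and 3.63. Birc5 (survivin) belongs to the chromosomal passenger complex with the kinase Aurora B and borealin, the product of Cdca8. Birc5 had a single read in all WT muscles together, in WT 4, and 109 in the mdx5cv muscles, a ratio of 88.0 per size factor with a 95% counting interval of 15.5 to 3506. Its fitted log2 fold change of 4.25 depends on the pseudocount and is no bound. Cdca8 was not tested, with 1.10 to 2.29 normalised counts in WT and 8.1 to 24 in mdx5cv, and without the filter its log2 fold change was 2.11 (adjusted p = 0.00291).

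Among the cyclins and kinases of S, G2 and M phase, 5 of 6 tested members rose and 1 fell. All 5 that rose passed the filter through mdx5cv alone, and 71.4% of all such genes were called. Ccnb1, cyclin B1, had 1.15, 1.10, 0.00 and 1.06 normalised counts in WT 1 to 4 and 38.0, 26.4, 13.5 and 68.7 in mdx5cv 1 to 4. The WT values are 3 reads in all against 170 in mdx5cv, a ratio of 45.7 per size factor (95% counting interval 15.4 to 224). The groups were far apart, and the mdx5cv muscles themselves spanned 13.5 to 68.7. Cdk1, the kinase that cyclin B1 activates, rose from 1.34 ± 2.0 to 34.2 ± 16.3 (log2 fold change 4.18 ± 0.56, adjusted p = 8.65e-05). Ccna2 (cyclin A2) rose by 4.03 and Ccnb2 (cyclin B2) by 2.64 on the log2 scale. Of the exon bases of Ccna2, 12.5% also belong to Exosc9 on the opposite strand. Plk1, the Polo kinase of mitosis, was not tested at 0.00 to 3.18 normalised counts in WT and 7.2 to 32 in mdx5cv. Its log2 fold change without the filter was 2.88 (adjusted p = 0.00064).

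The Aurora kinases moved apart. Aurkb, the kinase of the passenger complex, had 2.29, 1.10, 0.00 and 2.12 normalised counts in WT 1 to 4 and 19.5, 11.3, 13.5 and 30.4 in mdx5cv 1 to 4, and rose by 3.09 ± 0.52 on the log2 scale (adjusted p = 0.000447). Aurka, the kinase of centrosomes and spindle poles, had 69.9, 24.1, 69.7 and 69.9 in WT and 32.4, 23.6, 31.5 and 21.6 in mdx5cv. WT 2 lay within the range of the mdx5cv muscles and the other WT muscles lay well above it. The log2 fold change of Aurka was -0.97 ± 0.32 (adjusted p = 0.0259), just short of the fold limit. Without any one of WT 2, mdx5cv 1 or mdx5cv 3 it fell past the limit (-1.35, -1.06 and -1.05), whereas without any one of WT 1, WT 3, WT 4, mdx5cv 2 or mdx5cv 4 the adjusted p rose to between 0.0542 and 0.0806, and with libraries scaled to equal totals it was 0.132. Per kilobase of exon, WT muscles had a ratio of Aurkb to Aurka of 0.0233 ± 0.0166 and mdx5cv muscles one of 0.626 ± 0.393 (SD over 4 muscles, not tested), with no overlap between the groups.

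All 3 genes of the spindle checkpoint and anaphase rose, and all 3 passed the filter through mdx5cv alone. Cdc20, which activates the ligase that starts anaphase, had 0.00, 1.10, 0.00 and 2.12 normalised counts in WT 1 to 4 and 21.3, 13.2, 9.91 and 59.9 in mdx5cv 1 to 4. It had 3 reads in WT and 123 in mdx5cv (ratio 33.1, 95% counting interval 11.1 to 163), and its fitted log2 fold change was 3.74 ± 0.62 (adjusted p = 0.000404). mdx5cv 4 held more Cdc20 than the 3 other mdx5cv muscles together. Bub1, a checkpoint kinase, had 1.15, 4.39, 1.11 and 1.06 in WT and 22.2, 17.0, 7.20 and 39.2 in mdx5cv. Its log2 fold change of 2.86 ± 0.54 (adjusted p = 0.00107) was the smallest of the 3 in the main fit. In edgeR and DESeq2 Bub1 was at 3.41 and 3.48, above Bub1b at 3.09 and 3.11. Bub1b, which codes for the checkpoint protein BUBR1, rose from 6.06 ± 3.31 to 52.2 ± 18.7.

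Of the 9 spindle and cytokinesis genes, 8 rose and Tpx2 was not called. Of the 8, 6 passed the filter through mdx5cv alone (71.4% of all such genes were called). Of the 3 genes with a WT mean of at least 10, 2 rose past the fold limit, against 7.13% of all such genes. Prc1, which bundles microtubules of the central spindle, had 0.00, 1.10, 0.00 and 6.36 normalised counts in WT 1 to 4 and 57.4, 50.9, 30.6 and 92.7 in mdx5cv 1 to 4. Its log2 fold change was 4.79 ± 0.59 (adjusted p = 4.63e-05), with WT 4 again the highest WT muscle. Over the alternative settings it ran from 2.47 to 6.67. Ect2 and Racgap1, which together switch on RhoA at the cleavage furrow, rose by 3.63 ± 0.61 and 2.35 ± 0.29. The kinesins Kif11, which pushes spindle poles apart, Kif23, of the central spindle, and Kif20a, which takes part in cytokinesis, rose by 3.35, 2.91 and 2.03. Nusap1, a microtubule binding protein, rose by 3.25, and Anln (anillin), a scaffold of the contractile ring, by 1.94, from 23.4 ± 10.6 to 91.7 ± 35. Annotated exons of Prc1 and Kif20a share 11.1% and 29.3% of their bases with genes on the opposite strand, and whether reads were counted by strand is not given in the sources used here.

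Tpx2, which activates Aurora A on the spindle, had 58.5, 42.8, 31.0 and 23.3 normalised counts in WT 1 to 4 and 42.6, 46.2, 39.6 and 92.7 in mdx5cv 1 to 4. Only mdx5cv 4 stood above all WT muscles. The log2 fold change was 0.49 (95% interval -0.18 to 1.16, adjusted p = 0.227), and with equal totals it was called at 0.84 (adjusted p = 0.0465). Among the members that act in mitosis, Tpx2 and its partner Aurka were the ones that did not rise in the main fit or, for Plk1 and Cdca8, in the fit with no filter.

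**Figure D3:**
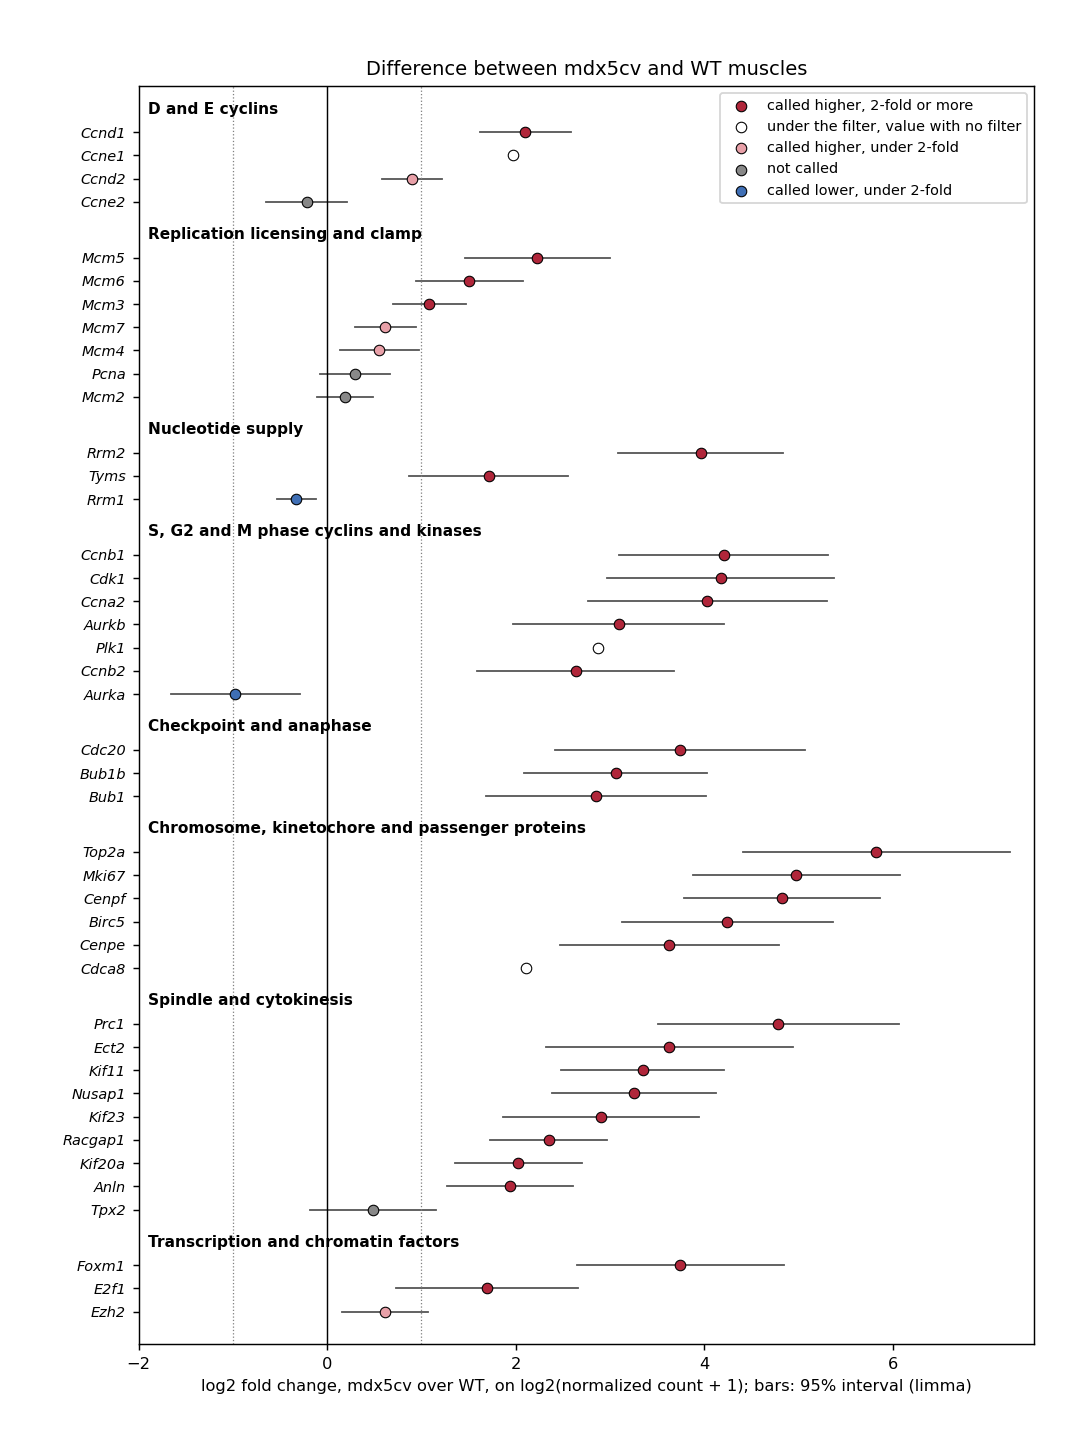
Log2 fold change of mdx5cv over WT for each gene on the log2(normalised count + 1) scale (x axis), with the 95% interval of the limma fit as bars and genes grouped by role; colours give the call and open circles are genes under the filter, with their value from the fit with no filter. The genes of mitosis lie mostly between 2 and 6, from Kif20a at 2.03 to Top2a at 5.83, the replication genes between 0.19 (Mcm2) and 2.23 (Mcm5), and Rrm1 and Aurka lie below 0.

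Of the 7 replication licensing and clamp genes, all with a WT mean of at least 10, 3 rose past the fold limit, 2 rose under it and 2 were not called. The MCM proteins form a ring of 6 subunits, and PCNA is the clamp that holds the polymerase on DNA. Mcm5 had 22.9, 7.68, 6.63 and 11.7 normalised counts in WT 1 to 4 and 55.6, 39.6, 46.8 and 87.1 in mdx5cv 1 to 4, a log2 fold change of 2.23 ± 0.36 (adjusted p = 0.000334). Mcm2 had 92.8, 92.1, 86.2 and 115 in WT and 111, 100, 109 and 120 in mdx5cv. The groups of Mcm2 overlapped, and its log2 fold change of 0.19 had a 95% interval of -0.11 to 0.49 (adjusted p = 0.294). With equal totals Mcm2 was called at 0.55 (adjusted p = 0.0241). Between these, Mcm6 rose by 1.51 and Mcm3 by 1.09, past the fold limit, and Mcm7 by 0.62 and Mcm4 by 0.55, under it. The call of Mcm4 was lost in DESeq2, with no filter and without any one of 5 of the 8 muscles, with an adjusted p of 0.0521 to 0.108. Pcna was not called (0.30, 95% interval -0.08 to 0.67), but was with equal totals (0.65, adjusted p = 0.0183).

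Since the subunits are assembled into 1 ring, their levels per kilobase were set side by side. The ratio of Mcm5 to Mcm2 was 0.221 ± 0.14 in WT and 0.894 ± 0.259 in mdx5cv, that of Mcm6 to Mcm2 was 0.593 ± 0.215 and 1.48 ± 0.459, and that of Mcm3 to Mcm2 was 0.666 ± 0.119 and 1.24 ± 0.106 (SD, n = 4). In none of these 3 ratios did the groups overlap. The ratio of Mcm4 to Mcm2 was 0.941 ± 0.141 in WT and 1.23 ± 0.257 in mdx5cv, and that of Mcm7 to Mcm2 was 1.17 ± 0.232 and 1.56 ± 0.205, with overlap in both. None of the 5 was tested. In every WT muscle Mcm3, Mcm5 and Mcm6 were at a lower level per kilobase than Mcm2. Exon length here is the union of all annotated exons, which includes rare isoforms.

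In nucleotide supply, the subunits of ribonucleotide reductase, which makes the building blocks of DNA, moved in opposite directions. Rrm2, the small subunit, which is made in S phase, had 6.88, 2.19, 4.42 and 3.18 normalised counts in WT 1 to 4 and 80.6, 68.9, 36.9 and 155 in mdx5cv 1 to 4. Rrm1, the large subunit, had 424, 449, 424 and 389 in WT and 344, 328, 331 and 336 in mdx5cv. Every mdx5cv muscle was above every WT muscle for Rrm2 and below every WT muscle for Rrm1. The log2 fold changes were 3.96 ± 0.41 (adjusted p = 1.15e-05) and -0.33 ± 0.10 (adjusted p = 0.0148). With libraries scaled to equal totals, under which the median of all genes tested was 0.36, the value of Rrm1 was 0.03 and it was not called. The ratio of Rrm2 to Rrm1 per kilobase, which no scaling of libraries changes, was 0.0395 ± 0.0190 in WT and 1.01 ± 0.587 in mdx5cv (not tested), and ranged from 0.444 in mdx5cv 3 to 1.83 in mdx5cv 4. Tyms, thymidylate synthase, averaged 9.30 ± 3.61 in WT and 34.3 ± 19.4 in mdx5cv and rose by 1.71 ± 0.39.

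Among the cyclins of G1 that are members, Ccnd1 and Ccnd2 rose, Ccne2 was not called and Ccne1 was under the filter. The third D cyclin, Ccnd3, is not a member. Ccnd1, cyclin D1, had 32.1, 24.1, 47.5 and 45.6 normalised counts in WT 1 to 4 and 142, 146, 141 and 215 in mdx5cv 1 to 4, a log2 fold change of 2.10 ± 0.22 (adjusted p = 1.43e-05). Ccnd2, cyclin D2, rose by 0.90 ± 0.15, under the fold limit. Ccne2, cyclin E2, had 51.6, 73.5, 59.7 and 40.3 in WT and 51.9, 50.9, 39.6 and 47.2 in mdx5cv. The groups of Ccne2 overlapped, and its log2 fold change was -0.22 (95% interval -0.65 to 0.22, adjusted p = 0.413). Ccne1, cyclin E1, was not tested, at 1.11 to 3.44 normalised counts in WT and 8.10 to 20.8 in mdx5cv, with no overlap. Without the filter its log2 fold change was 1.97 (adjusted p = 0.00425). Of the exon bases of Ccnd1 and Ccne2, 23.4% and 17.4% also belong to a gene on the opposite strand.

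All 3 transcription and chromatin factors rose, Ezh2 under the fold limit. Foxm1 and E2f1 passed the filter through mdx5cv alone, and 71.4% of all such genes were called. Foxm1, a forkhead factor of G2 and mitosis genes, had 0.00, 2.19, 1.11 and 3.18 normalised counts in WT 1 to 4 and 31.5, 15.1, 34.2 and 48.7 in mdx5cv 1 to 4, a log2 fold change of 3.75 ± 0.51 (adjusted p = 9.86e-05). E2f1, an activator of S phase genes, rose from 6.55 ± 4.44 to 22.3 ± 9.85 (1.70 ± 0.45, adjusted p = 0.00854). Its lowest mdx5cv muscle, at 13.5, was close to its highest WT muscle, at 12.7. Ezh2, the histone H3 lysine 27 methyltransferase, had 66.5, 45.0, 43.1 and 47.7 in WT and 105.6, 66.0, 57.6 and 86.3 in mdx5cv. These groups overlapped, and the rise of 0.61 ± 0.21 (adjusted p = 0.0338) was lost without any one of WT 2, WT 3, WT 4, mdx5cv 1 or mdx5cv 4, with an adjusted p of 0.0644 to 0.117.

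The size of the difference went with the level in WT muscle. The 25 members with a WT mean under 10 normalised counts had log2 fold changes of 1.70 to 5.83 (median 3.35, with no filter). The 4 with a WT mean of 10 to 30, Mcm5, Mki67, Anln and Racgap1, had 1.94 to 4.98. The 13 with a WT mean of at least 30 had -0.97 to 2.10 (median 0.55). The fold change is computed from the same WT values, so the relation is a description only. On the scale of the counts themselves, the median difference between group means was 30.8, 63.0 and 28.3 normalised counts in the 3 bands. The members that were well expressed in WT muscle were Ccnd1, Ccnd2, Ccne2, Mcm2, Mcm3, Mcm4, Mcm6, Mcm7, Pcna, Rrm1, Aurka, Tpx2 and Ezh2, all but Aurka and Tpx2 genes of G1, S phase or chromatin.

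The muscles were then ordered by the mean of the 42 genes on the log2(normalised count + 1) scale. From the highest, the means were 6.34 in mdx5cv 4, 5.72 in mdx5cv 1, 5.42 in mdx5cv 2, 5.23 in mdx5cv 3, 3.62 in WT 4, 3.26 in WT 1, 3.08 in WT 2 and 2.97 in WT 3. The lowest mdx5cv muscle was above the highest WT muscle by more than the spread within either group (SD 0.49 in mdx5cv and 0.28 in WT). The gap between them was 1.61. Within a group neighbours differed by 0.11 to 0.62, and with 1 library per muscle no neighbouring pair in a group can be tested. The difference of the group means was 2.45. The order held with either other pseudocount, with TMM factors and with equal totals.

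The muscle mdx5cv 4 stood highest of the mdx5cv muscles in 38 of 42 members, and in all 29 called members, against 34.7% of all genes tested. It was highest in 38 with TMM factors and in 40 with equal totals. In the 4 exceptions, Ccne2, Rrm1, Aurka and Ezh2, mdx5cv 1 was the highest. The muscle mdx5cv 3 was lowest in 25 members and mdx5cv 2 in 12. In 26 of 42 members mdx5cv 4 was followed by mdx5cv 1 and then by both others, an order found in 16.4% of all genes tested. As reads, the 42 genes had 3388, 2788, 2628 and 5750 in mdx5cv 1 to 4 and 1198, 1198, 1116 and 1269 in WT 1 to 4. Without mdx5cv 4 the difference of group means was 2.22, and 28 members rose past the fold limit, all of the 29 but Mcm3 (0.99).

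**Figure D4:**
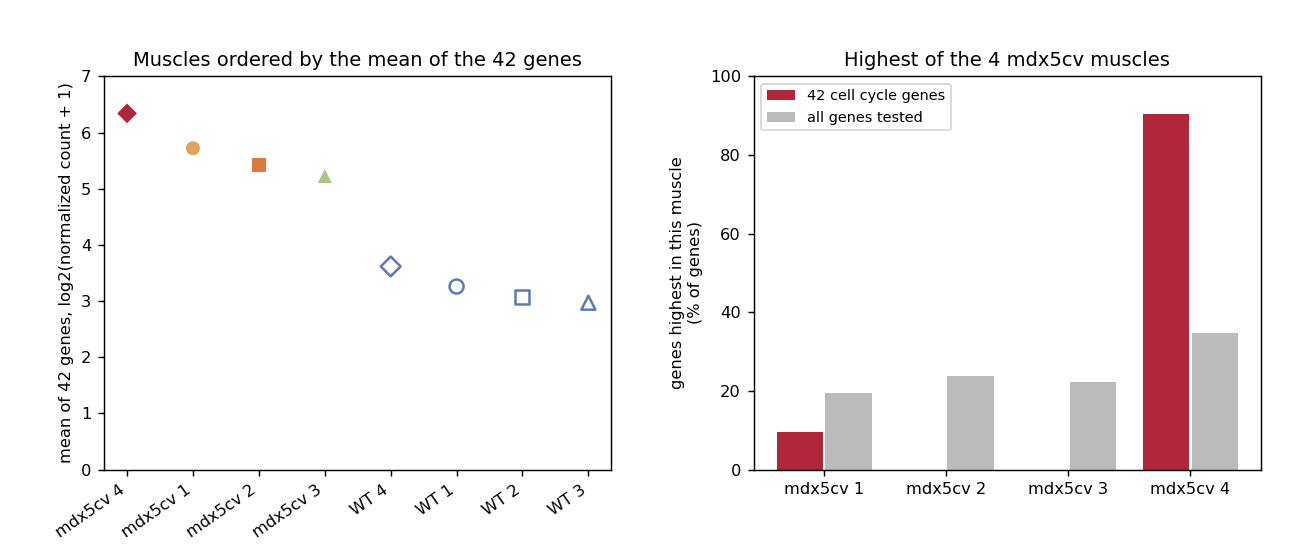
Left, mean of the 42 genes in each muscle as log2(normalised count + 1), ordered from the highest (mdx5cv 4, 6.34) to the lowest (WT 3, 2.97). Right, percentage of genes whose highest mdx5cv muscle is the one named, for the 42 genes (red) and all genes tested (grey); mdx5cv 4 is the highest in 38 of the 42 and in 34.7% of all genes.

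Many of the members had few reads in WT muscle. Of the 42, 17, 18, 22 and 13 had 3 reads or fewer in WT 1 to 4, and none did in any mdx5cv muscle. WT 4 was the highest WT muscle for 17 members and WT 1 for 15, against 27.8% and 18.9% of all genes tested. For the chromosome and kinetochore group the mean of WT 4 was 2.99, and those of the other WT muscles were 0.88 to 1.5. In that group the WT means of Top2a, Mki67 and Cenpe therefore rest largely on WT 4. Without WT 4 the difference of group means over the 42 was 2.57 and the count of members that rose stayed at 29. Without WT 4 and mdx5cv 4 together, a choice made after seeing the data, it was also 29, the same genes.

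Further cell cycle genes were taken from lists drawn up by role and not by how they moved, though with earlier results of these data known. Of 53 further mitosis genes, 33 were tested, 24 rose past the fold limit, 2 rose and 2 fell under it, and 5 were not called (median log2 fold change 1.75). The largest rises were those of Ncapg, a condensin subunit, and Aspm, a spindle pole protein. Aspm rose by 4.17 ± 0.56. Ncapg had 1 read in WT and 127 in mdx5cv, a ratio of 102 per size factor (95% counting interval 18.1 to 4080), with a fitted log2 fold change of 4.30 that depends on the pseudocount. Pttg1 (securin), which holds separase inactive, fell by 0.69 and Bub3, a checkpoint protein, fell by 0.28 on the log2 scale. Both were well expressed in WT muscle, at 352 ± 47.5 and 339.7 ± 27.2 normalised counts. The fall of Bub3 was lost in most alternatives and turned to 0.08 with equal totals, where Pttg1 was at -0.34 and no longer called (adjusted p = 0.0781). Fam83d, which brings a kinase to the spindle, was not called (-0.44, adjusted p = 0.382). As in the members, 16 of the 33 passed the filter through mdx5cv alone, all of them called (71.4% of all such genes). Of the 17 with a WT mean of at least 10, 8 rose past the limit, against 7.13% of all such genes.

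Of 33 further replication genes, 26 were tested, 5 rose past the fold limit, 5 rose under it, 4 fell under it and 12 were not called (median 0.23). Of the 5, 3 passed the filter through mdx5cv alone, and of the 23 with a WT mean of at least 10, 2 rose past the limit, against 7.13% of all such genes. The 4 falls compare with 20.1% of all genes tested. Uhrf1, which brings DNA methylation to new strands, rose by 3.89 ± 0.60, and Clspn (claspin), of the replication checkpoint, by 3.06 ± 0.39. The 4 that fell were Rfc4 (-0.56), a clamp loader subunit, Rpa2 (-0.55), of the single strand binding complex, Tipin (-0.45), of the fork protection complex, and Pola2 (-0.35), of the priming polymerase. With equal totals Pola2 was at 0.0036 and none of the 4 was called. The calls of Rfc4, Tipin and Pola2 were also lost in DESeq2, with no filter and without any one of 5 (Rfc4) or 6 (Tipin and Pola2) of the 8 muscles, and that of Tipin in edgeR.

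Of 28 genes that control the cycle, 26 were tested, 5 rose past the fold limit, 2 rose under it, 3 fell under it and 16 were not called (median 0.12). Here too 3 of the 5 passed the filter through mdx5cv alone, and of the 23 with a WT mean of at least 10, 2 rose past the limit (7.13% of all such genes). At any fold 7 rose (20.9% of all genes) and 3 fell (20.1%). E2f8, a repressor of the E2F family that is itself a target of E2F, rose (fitted log2 fold change 4.85 ± 0.47), with 2 reads in WT and 204 in mdx5cv, a ratio of 82.3 per size factor (95% counting interval 22.5 to 684). Cdk6, a partner of D cyclins, rose from 51.1 ± 9.8 to 284 ± 71 (2.44 ± 0.19, adjusted p = 1.5e-06). Its paralogue Cdk4 went from 214 to 233 and was not called (0.12, adjusted p = 0.519). E2f6 fell by 0.76, Tfdp2 by 0.60 and E2f3 by 0.43 on the log2 scale. The adjusted p of E2f3, 0.0498, went over the threshold in most alternatives, and Tfdp2 was not called with equal totals (adjusted p = 0.101). Of the tested subunits of the DREAM and MuvB complexes, Lin9, Lin37, Lin52, Lin54, Rbl1, Rbl2, E2f4, E2f5 and Tfdp1 were not called. Tfdp2, whose fall is given above, also belongs among them. Mybl2, which codes for B-MYB, was under the filter at 1.07 ± 1.5 in WT and 11.9 ± 5.94 in mdx5cv.

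Markers of several cell types moved with the members, and their part in these results was not tested. Of the 7 macrophage markers, 6 rose past the fold limit (10.3% of all genes tested) and Cd163 fell by 1.49 (3.27% fell past the limit). Of the 6, 1 passed the filter through mdx5cv alone. The summed macrophage level was 386 to 597 normalised counts in WT and 1648 to 3905 in mdx5cv, highest in mdx5cv 4, followed by mdx5cv 1. All 4 markers of regenerating fibers rose past the fold limit, 1 of them, Mymk, having passed the filter through mdx5cv alone. Their summed levels were 166 to 182 in WT and 2214 to 8414 in mdx5cv, again highest in mdx5cv 4. Myh3, the embryonic myosin, rose by 6.02, and Mymk, which drives myoblast fusion, had 1 read in WT and 114 to 448 normalised counts in mdx5cv. Of the 4 satellite cell and myoblast markers, Myog rose by 3.14 and Pax7 by 0.91, and Myf5 and Cdh15 were not called; the summed level was 237 to 309 in WT and 478 to 1242 in mdx5cv, with its highest value in mdx5cv 4.

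Among stromal markers, Col1a1 and Col3a1 rose by 3.13 and 3.09 and Pdgfra by 0.63, and Dcn was not called, with summed levels of 4918 to 7485 in WT and 16890 to 30540 in mdx5cv. The 5 T cell markers were under the filter, with Cd3e and Cd8a at 0 reads in every WT muscle. Their summed level was 3.18 to 7.68 in WT and 25.9 to 45.6 in mdx5cv, lowest in mdx5cv 1. With no filter all 5 rose past the fold limit, on few reads, against 7.73% of genes with a read. The groups overlapped in Cd3g and Lck. The 3 B cell markers summed to 13.2 or less in every muscle. Of the erythroblast markers, Klf1 was at 2.40 or less in every muscle, and Alas2 fell by 1.27 and Hba-a1, which shares reads with a near-identical copy, by 0.84. Of the endothelial markers, 3 of 4 fell under the fold limit (20.1% of all genes tested fell at any fold) and Tie1 was not called. Of the fiber genes Ckm and Actn3 fell by 0.75 and 0.64, and Acta1 and Myh4 were not called, with a summed level of 562000 in mdx5cv 4 and 787000 to 957900 in the other 7 muscles.

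**Figure D5:**
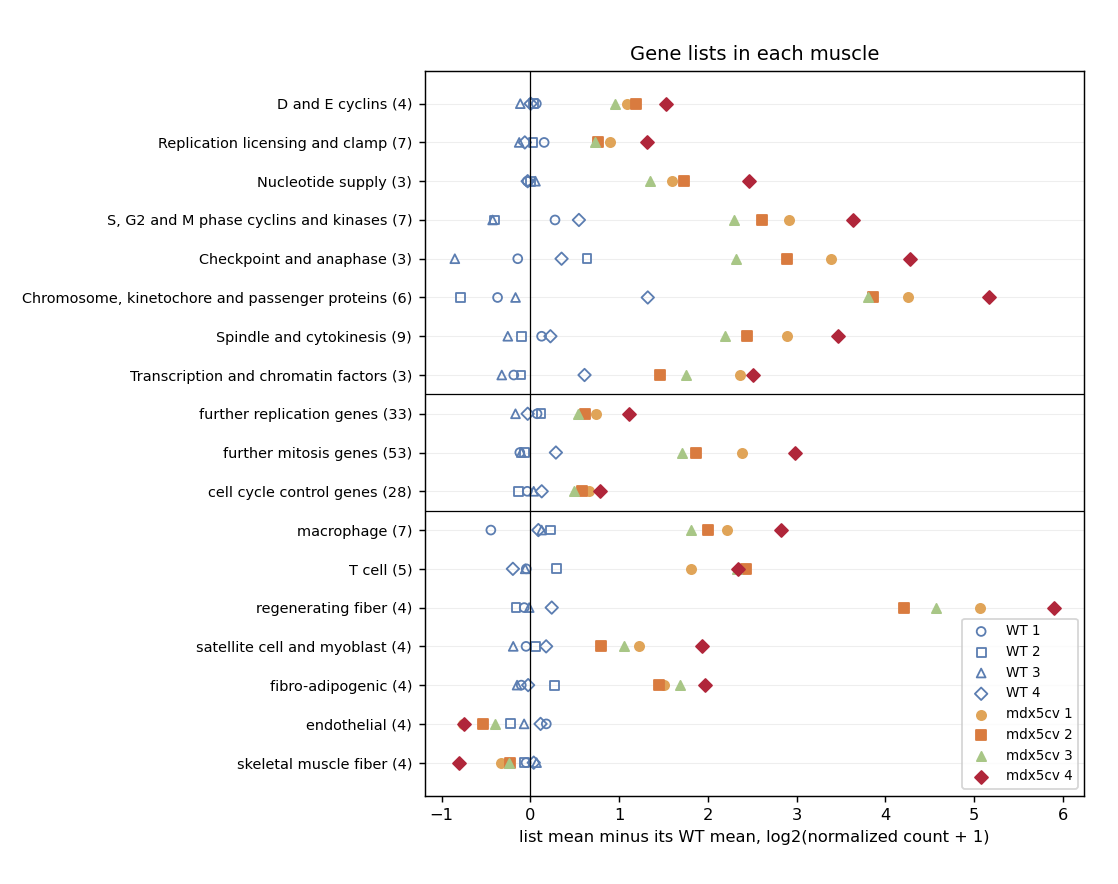
Mean of each gene list in each muscle minus its mean over the WT muscles, on the log2(normalised count + 1) scale (x axis), with the number of genes in brackets; open blue symbols are WT and filled symbols mdx5cv, and lines part the 8 roles of the 42 genes, the further lists and the cell type markers. The mdx5cv 4 muscle (red diamond) is the highest in all 8 roles, and also for the macrophage, regenerating fiber, satellite cell and fibro-adipogenic markers.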

How the data were processed

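Total RNA-seq was done on 4 WT and 4 mdx5cv TA muscles, with 1 library per muscle. Per the labels the libraries were stranded and depleted of ribosomal RNA. The table used holds a signal that the authors deposited as counts per gene divided by a size factor for each library. The submitters' processing notes list FastQC, Trim Galore 0.6.4, STAR 2.6.0c, SAMtools 1.9, featureCounts, MultiQC 1.6, DESeq2 1.26.0, R 3.6.2 and mm10, and whether reads were counted by strand is not given in the sources used here. The deposited values were whole multiples of 1 read in each library, which recovered whole reads for 100.0% of values (tolerance 0.001), and the factors equalled median-of-ratios factors of those reads. Depth was 13175524 to 14921057 reads per library. Replicates of a group differed by more than counting noise (chi-square per degree of freedom 8.59 to 38.4), so each was kept as its own sample. Counting intervals cover counting error only.

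From these values log2(normalised count + 1) was fitted with limma 3.58.1 (R 4.3.3; empirical Bayes with a variance trend) over the 13677 genes with a mean of at least 10, with Benjamini-Hochberg adjustment over all of them. Members were called at adjusted p under 0.05 and a log2 fold change of at least 1 in size. The recovered reads were also tested with edgeR 4.0.16 (quasi-likelihood) and DESeq2 1.42.0. Other alternatives were pseudocounts of 0.1 and 10, no filter, a mean of at least 50, TMM factors, equal totals, no variance trend, a replicate block and leaving out each muscle. Genes were placed on GENCODE M21 (GRCm38) by gene ID, with 55141 of 55401 IDs matched, and promoters came from RefSeq. Every member is named, with values per muscle for the largest and smallest log2 fold change of each role. From each further list the 2 largest and 2 smallest log2 fold changes and every gene that fell are named, and other genes of these lists were named after their values were seen. The members, lists and tests were chosen with earlier results of these data known. 1 marker gene is not reported here.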

Additional observations from a re-analysis of the deposited data

Results flagged for a closer look

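In 9 of 102 sets of 4 muscles compared on the log2(normalised count + 1) scale, 1 muscle lay apart from the other 3, its gap to the nearest neighbour, as a share of the whole range, being over Dixon's 95% critical value for 4 samples. For independent sets of normally spread values, chance would mark about 1 in 20, or 5.1 of 102. These sets come from the same 8 muscles and many hold few reads, so that number need not apply here. In Ccnd1 the muscle mdx5cv 4 was the highest at 7.75, with the other mdx5cv muscles at 7.14 to 7.20. The other 8 were among WT muscles. In Aurka WT 2 was the lowest at 4.65, with the others at 6.14 to 6.15, and this muscle bears on the call of Aurka given above. In Mcm3 WT 1 was the lowest at 4.83 (others 5.21 to 5.26), in Bub1b WT 3 at 1.07 (others 3.07 to 3.17) and in Kif20a WT 2 at 2.70 (others 3.40 to 3.50). In Bub1 WT 2 was the highest at 2.43, which was 4 reads (others 1.04 to 1.10). The last 3 rest on single reads, with Ccnb1 in WT 3 at 0.00 (no read), Birc5 in WT 4 at 1.04 (1 read, others 0 reads) and Cdca8 in WT 2 at 1.07 (1 read). WT 2 was the muscle apart in 4 of the 9 sets, WT 3 in 2, and WT 1, WT 4 and mdx5cv 4 in 1 each.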

How the results depend on the processing

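The count of members that rose past the fold limit (29) was 27 to 32 under every alternative but the filter at a mean of 50, which leaves fewer genes and gave 6 members, 10 at any fold, 0 further replication genes, 1 further mitosis gene and 2 control genes. DESeq2 called 32 members, 8 replication genes and 44 mitosis genes, no filter called 43 mitosis genes, equal totals called 9 replication genes, and a pseudocount of 10 called 3 control genes, against 5, 24 and 5 for the 3 lists. Members that fell past the limit numbered 0, and 1 (Aurka) with DESeq2 and with edgeR. Leaving out 1 muscle gave 28 to 29 members that rose, 0 to 1 that fell, 31 to 33 at any fold, 4 to 7 replication, 22 to 24 mitosis and 4 to 6 control genes, and a difference of group means of 2.22 to 2.6. That difference (2.45) was 3.0 with a pseudocount of 0.1, 1.41 with one of 10, and 1.43 with a mean of at least 50. Equal totals turned Ccne2 (0.13), Rrm1 (0.0283), Pola2 (0.0036) and Bub3 (0.0765) from negative to positive, all uncalled, and called Mcm2, Pcna and Tpx2 (0.55, 0.65 and 0.84). Of 716 values for the 39 members tested, 690 kept their direction and side of the threshold. Deviations of same-numbered muscles had correlations of 0.03 to 0.15, and those of other pairs -0.148 to 0.0741. Not every muscle correlated best with its own number. These small values do not decide whether the replicate numbers pair the muscles. A replicate block gave 29 members. With 13 to 22 members at 3 reads or fewer in each WT library, depth limits the WT values.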
